A study of Mus musculus with 2 samples.

Results

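Liver neutrophils carrying transcripts of Irg1 or Slc7a11 were taken from 2 droplet single-cell libraries of mouse liver non-parenchymal cells by raw UMIs (unique molecular identifiers, 1 per captured transcript). A cell was kept with at least 300 detected genes and under 20% of its UMIs from mitochondrial genes. It had to hold at least 20 UMIs of S100a8 and S100a9 together, at least 2 of the receptor and neutrophil genes Cxcr2, Csf3r and Retnlg together, and 0 of the T cell genes Cd3d, Cd3e and Cd3g. It also had to hold at least 1 UMI of Irg1 or Slc7a11. The cells were thus chosen by their own UMIs of these genes, whose levels are given as a description. The rule left 637 cells of 9990 in the PKM2FL/FL library and 594 of 8877 in the PKM2ΔMAC library, 1231 of 18867 in all. Neutrophils that met every other condition but held 0 UMIs of both genes numbered 50 and 91, and are called the other neutrophils.

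Both libraries came from mice fed for 8 weeks with an MCD diet, which lacks methionine and choline and produces a fatty, inflamed liver. PKM2FL/FL denotes a floxed Pkm gene (FL/FL below), and PKM2ΔMAC is named for loss of the pyruvate kinase isoform PKM2 in macrophages (ΔMAC below). The Cre driver of the deletion, and the number of mice pooled into a library, are missing from the labels used here. With 1 library per genotype there are no replicates and no test between genotypes, so genotype cannot be told apart from animal, day or cell preparation. All differences describe these libraries, and the 95% intervals reflect counting error alone.

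Neutrophils are short-lived phagocytes that leave the blood for inflamed tissue, follow ELR-type CXC chemokines through the receptor Cxcr2, and carry granules of proteases and antimicrobial proteins. Irg1 (also named Acod1) encodes the enzyme that turns the citric acid cycle intermediate cis-aconitate into itaconate, and it is switched on when myeloid cells sense microbial products or cytokines. Slc7a11 encodes the cystine-glutamate exchanger that feeds cysteine into glutathione synthesis. Cxcl2 encodes a chemokine that draws further neutrophils, and its transcription, like that of Nfkbia and Tnfaip3, is driven by the factor NF-kB.

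Irg1 (ENSMUSG00000022126) lies at chr14:103046977-103056573 on the plus strand of GRCm38. Slc7a11 (ENSMUSG00000027737) lies at chr3:49892526-50443614 on the minus strand, and Cxcl2 at chr5:90903871-90905938 on the plus strand. The 150 bases before the RefSeq start of the genes that define these cells, and of Cxcl2, the gene whose pattern was most like them, are shown because their transcripts are described side by side throughout. They are given 5′ to 3′ on the gene's strand in GRCm38.p6, for Irg1 at chr14:103046862-103047011, Slc7a11 at chr3:50443614-50443763 and Cxcl2 at chr5:90903749-90903898, with motif matches in capitals.
Irg1: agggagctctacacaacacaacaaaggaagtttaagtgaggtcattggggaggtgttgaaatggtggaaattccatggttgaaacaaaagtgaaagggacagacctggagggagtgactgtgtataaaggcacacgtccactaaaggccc
Slc7a11: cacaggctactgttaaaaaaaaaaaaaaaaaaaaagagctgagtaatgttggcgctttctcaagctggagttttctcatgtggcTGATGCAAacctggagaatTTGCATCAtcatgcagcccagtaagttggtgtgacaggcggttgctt
Cxcl2: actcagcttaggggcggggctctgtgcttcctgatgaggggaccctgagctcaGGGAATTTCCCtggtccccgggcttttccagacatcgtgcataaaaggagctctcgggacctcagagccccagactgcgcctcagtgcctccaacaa
Both strands were searched for 4 motifs: NF-kB, AP-1 (TGANTCA), the antioxidant response element (TGACNNNGC) and the composite C/EBP-ATF element (TGATGNAA). The capitals of Cxcl2 mark a pair of overlapping NF-kB matches that begin 97 and 96 bases before the start. Those of Slc7a11 mark C/EBP-ATF matches 66 and 47 bases before the start, facing each other on opposite strands. The Irg1 window holds none of these letters. Of 32851 windows of the same length before mouse genes, 4.60% hold an NF-kB match, 4.24% an AP-1 match, 6.80% an antioxidant response match and 2.23% a C/EBP-ATF match. A match describes letters and shows no binding.

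The cells were shallow. Their median was 2256 UMIs and 962 genes in FL/FL and 2461 UMIs and 883 genes in ΔMAC, against 4527.5 and 3818 UMIs over all cells. They ranged from 596 to 41036 UMIs in FL/FL and from 649 to 17435 in ΔMAC. Of the neutrophil markers, 7 helped to choose the cells and say nothing on the label. The other 12, among them Mmp9, Hdc, Clec4d and Ly6g, were all detected in each library, with summed levels of 15033 CPM in FL/FL and 15072 CPM in ΔMAC (UMIs scaled to a total of 1000000 UMIs of these cells in that library), against 382 and 208 CPM in cells that are not neutrophils. The chemokine gene Cxcl2 is one of the 12 and gave 5317 and 3492 CPM of these sums. In cells that are not neutrophils it gave 218 and 76.2 CPM. Markers of other cells were present too. The 9 monocyte markers summed to 682 CPM in FL/FL and 767 in ΔMAC, where the sum of all cells that are not neutrophils had 1238 and 1267. Conventional dendritic cell markers summed to 505 and 372 CPM (1140 and 1281 in those cells), natural killer markers to 658 and 210 (1837 and 1570) and B cell markers to 307 and 222 (756 and 804). Kupffer cell markers summed to 35.5 and 53.7, with Clec4f and Marco at 0 in FL/FL. The libraries shared 17 barcodes among all cells and 0 among these neutrophils. Scrublet called 47 (7.38%) and 42 (7.07%) of these cells doublets, above the 4.80% and 3.69% of all cells, and they were kept.

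The word activated in the working name rests on the rule's genes alone, and most liver neutrophils carried them. Of 687 neutrophils in FL/FL, 637 had Irg1 or Slc7a11, a share of 92.7% (90.5 to 94.6%, exact Clopper-Pearson). Of 685 in ΔMAC, 594 had one of them, 86.7% (83.9 to 89.2%), lower by 6.01 points (difference -6.01, -9.25 to -2.80). As a share of all cells, they made up 6.38% in FL/FL (5.91 to 6.87%) and 6.69% in ΔMAC (6.18 to 7.23%), a difference of 0.315 points with an interval from -0.390 to 1.03. In these libraries the share of neutrophils with the genes was thus lower in ΔMAC, while the shares of all cells were close. The intervals count single cells of 1 library per genotype, so they cannot decide whether genotype changed either share. Both shares also rest on the rule's own genes.

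The genes split unequally. Irg1 was detected in 411 of 687 FL/FL neutrophils, 59.8% (56.1 to 63.5%), and in 293 of 685 ΔMAC neutrophils, 42.8% (39.0 to 46.6%). Slc7a11 was detected in 87.0% (84.3 to 89.5%) and 80.3% (77.1 to 83.2%). The gap between libraries was -17.1 points for Irg1 (-22.2 to -11.8) and -6.75 for Slc7a11 (-10.7 to -2.85). Cells with both genes made up 58.4% of the Irg1 or Slc7a11 neutrophils in FL/FL and 41.9% in ΔMAC, cells with Slc7a11 alone 35.5% and 50.7%, and cells with Irg1 alone 6.12% and 7.41%. With each neutrophil thinned to 1000 UMIs, the share with either gene was 79.3% in FL/FL and 66.4% in ΔMAC, for Irg1 44.4% and 26.0%, and for Slc7a11 67.5% and 56.4%. Thinning left out 14 FL/FL and 4 ΔMAC cells with fewer UMIs, and the order of the libraries was the same.

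Cells rich in these transcripts were mostly in FL/FL. The summed UMIs of both genes had a median of 5 per cell and a highest value of 68 in FL/FL, against 4 and 32 in ΔMAC. With 10 or more UMIs there were 165 cells in FL/FL and 68 in ΔMAC, and with 1 UMI there were 73 and 105. Just outside the rule stood the 50 and 91 cells with 0, whose median depth of 1993 and 2208 UMIs was below that of the cells with 1 UMI, at 2166 and 2434. At the rule's other limits, 19 and 3 cells had an S100a8 and S100a9 sum of 10 to 19 and stayed out, and 13 and 4 cells had 20 to 29 and were kept. The limit of 2 receptor UMIs kept out 2 and 3 cells at a sum of 1. A Cd3 UMI kept out 109 and 75 cells that held an Irg1 or Slc7a11 UMI.

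**Figure D1:**
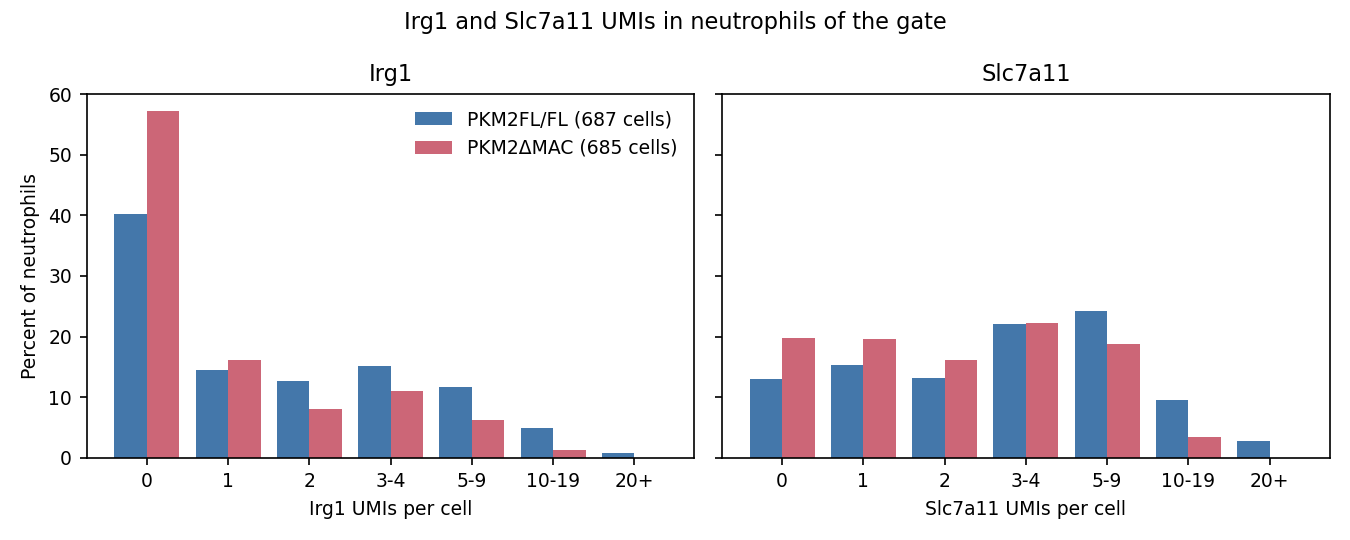
Percent of the 687 FL/FL and 685 ΔMAC neutrophils (vertical axis) by the UMIs of Irg1 (left) and of Slc7a11 (right) in a cell (horizontal axis). Cells with 20 or more UMIs occurred in FL/FL alone, 6 for Irg1 and 19 for Slc7a11, and cells with 0 UMIs took a larger share in ΔMAC for both genes.

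B-gated and T-gated cells, taken as a guide to free RNA in the droplets, had far lower shares. They were chosen with under 20 UMIs of S100a8 and S100a9 together, and free RNA itself was not measured. An S100a8 UMI occurred in 16.3% of B-gated and 18.3% of T-gated cells in FL/FL, and in 27.1% and 31.0% in ΔMAC. The part of free RNA in the neutrophils' counts was not tested. An Irg1 or Slc7a11 UMI occurred in 2.17% of 2169 B-gated cells in FL/FL (median 3241 UMIs) and 0.861% of 2322 in ΔMAC (2804 UMIs). In T-gated cells it occurred in 69 of 2453 (2.81%, 5627 UMIs) and 20 of 1995 cells (5817 UMIs), although these cells were deeper than the neutrophils. Monocyte-gated cells, which belong to the same myeloid lineage, held one in 56 of 167 cells (33.5%, 9274 UMIs) and 27 of 119 (22.7%, 8486 UMIs). A Cxcl2 UMI occurred in 7.17% and 3.31% of T-gated cells. The neutrophils described here held 71.9% of all Irg1 UMIs of the FL/FL library and 77.7% of the ΔMAC library, and 61.9% and 73.9% of the Slc7a11 UMIs.

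Between the genotypes, the Irg1 or Slc7a11 neutrophils of ΔMAC had lower levels of 12 of 19 NF-kB genes and of Cxcl2, and higher levels of S100a8, S100a9, Lcn2, 6 of 7 stefins and 9 of 22 interferon genes. Of 3674 genes that reached 100 UMIs in the libraries together, 90 (2.45%) were at least 1.5-fold higher in ΔMAC and 708 (19.3%) at least 1.5-fold lower. The median gene stood at -0.26 (log2 ratio of ΔMAC over FL/FL). With that median set to 0, the split was 218 higher and 261 lower, so every difference below is to be read against -0.26. On that scale the small negative ratios of Csf3r, Il1rn, Ccl4, Mmp9, Hmox1, Ier3, Zfp36 and Ifitm1 given below turn positive. Some of the lower genes come within 1.5-fold on it, Cxcl2 among them (-0.35).

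The genes of the rule come first as a description, since they chose the cells. Irg1 stood at 941 CPM in FL/FL (897 to 985) and 492 CPM in ΔMAC (459 to 526), a ratio of 0.523 (0.481 to 0.567). Slc7a11 stood at 1668 CPM (1611 to 1728) and 1161 CPM (1111 to 1213), a ratio of 0.696 (0.658 to 0.736), or -0.52 on the log2 scale, which is within 1.5-fold. Both were lower in ΔMAC. S100a8 and S100a9, the alarmin pair that forms calprotectin, were higher, at 31326 and 41976 CPM in FL/FL and 57025 and 75255 CPM in ΔMAC, ratios of 1.82 (1.80 to 1.84) and 1.79. Together they took a median of 7.63% of a cell's UMIs in FL/FL and 14.26% in ΔMAC. The neutrophil receptors Cxcr2 and Csf3r lay within 1.5-fold, at 1127 and 1156 CPM for Cxcr2 (log2 ratio 0.04) and 1620 and 1423 CPM for Csf3r (-0.19). Retnlg, a secreted resistin-like protein of neutrophils, was at 12004 and 14705 CPM (0.29).

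Pkm, the gene named in the genotype, was lower in these neutrophils too. It stood at 677 CPM in FL/FL (640 to 715) and 325 CPM in ΔMAC (299 to 353), a ratio of 0.481 (0.435 to 0.531), and was detected in 80.7% and 55.9% of the cells. The 3′ tags counted here may lie outside the deleted part, so the level does not measure the deletion. Lyz2, the lysozyme gene of myeloid cells, was at 2587 CPM in FL/FL (2515 to 2661) and 61.2 CPM in ΔMAC (50.1 to 74.0), a ratio of 0.0236 (0.0193 to 0.0287), detected in 83.5% and 12.96% of cells. As background, the widely used LysM-Cre line carries Cre within Lyz2, and the labels used here do not say whether that line was used.

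Genes that answer NF-kB were lower as a group in ΔMAC. Of 19 members of the NF-kB feedback and target list with at least 100 UMIs, 12 were at least 1.5-fold lower (19.3% of all genes) and 0 higher. The list median was -0.71 (-0.45 with the median of all genes set to 0). Nfkbia encodes the inhibitor that holds NF-kB in the cytoplasm and is remade by it, and stood at 3753 CPM in FL/FL (3667 to 3842) and 1960 CPM in ΔMAC (1894 to 2027), a ratio of 0.522 (0.501 to 0.544). It was detected in 91.7% and 73.7% of cells. Tnfaip3, the A20 ubiquitin editor that dampens the same pathway, was at 634 CPM (599 to 671) and 283 CPM (258 to 309), a log2 ratio of -1.17. Both feedback genes were thus about as far apart as Irg1. Icam1, the adhesion molecule, was at 152 and 68.1 CPM (ratio 0.448, 0.359 to 0.557), and Sod2, the mitochondrial superoxide dismutase, at 234 and 106 CPM (0.450, 0.377 to 0.536). Nfkb1 was at 200 and 99.2 CPM (log2 ratio -1.01) and Nfkbiz, a nuclear co-regulator, at 977 and 539 CPM (-0.86). Other members of the list stood nearer to the median of all genes, among them Ier3 at -0.19, Zfp36 at -0.24 and Bcl3 at 0.02.

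Among the chemokines, Cxcl2 was lower in ΔMAC and the macrophage inflammatory proteins Ccl3 and Ccl4 were within 1.5-fold. Cxcl2 stood at 5317 CPM in FL/FL (5213 to 5422) and 3492 CPM in ΔMAC (3405 to 3581), a ratio of 0.657 (0.636 to 0.678), and was detected in 83.7% and 68.9% of the cells. With the median of all genes set to 0, its log2 ratio was -0.35, which is within 1.5-fold. Ccl3 was at 490 and 373 CPM (ratio 0.760, 0.687 to 0.842) and Ccl4 at 939 and 882 CPM (0.939, 0.877 to 1.01). Of 8 chemokines with at least 100 UMIs, 4 were at least 1.5-fold lower (19.3% of all genes) and 0 higher, with a list median of -0.50. Besides Cxcl2 these were Cxcl1 (82 and 25 UMIs), the interferon-induced Cxcl10 (124 and 48 UMIs) and Ccl5 (log2 ratio -0.93). Ccl5 is made mainly by lymphocytes, and the natural killer markers moved the same way, from 658 to 210 CPM summed, with Gzma at 338 and 62.9 CPM and Nkg7 at 165 and 61.7 CPM. Their part in the Ccl5 result was not tested.

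Genes of the interleukin 1 system differed in direction. Il1b, the main secreted form, was detected in 99.5% and 99.0% of cells at 7119 CPM (7000 to 7241) and 4977 CPM (4873 to 5083), a ratio of 0.699 (0.680 to 0.718) and so within 1.5-fold. Its receptor antagonist Il1rn stood at 236 and 232 CPM, a log2 ratio of -0.03 that lies above the median gene. The decoy receptor Il1r2 was higher in ΔMAC, at 485 CPM (454 to 517) and 944 CPM (899 to 991), a ratio of 1.95 (1.79 to 2.11). Tnf was at 238 CPM (217 to 261) and 166 CPM (147 to 186), a ratio of 0.695 (0.597 to 0.808). Of 11 cytokine and interleukin 1 genes, 2 were at least 1.5-fold higher, Il1r2 and the receptor chain Il1rap (0.66), and 0 lower. Over all genes, 2.45% were higher and 19.3% lower. Il6 had 43 UMIs in FL/FL and 1 in ΔMAC, but 83.7% of the FL/FL UMIs were in 1 cell.

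Of 16 pattern recognition genes, 6 were at least 1.5-fold lower and 0 higher, where 19.3% of all genes were lower, and the list median of -0.37 was near the median gene. Cd14, the co-receptor for lipopolysaccharide, was at 1249 and 727 CPM (ratio 0.583, 0.544 to 0.624), and the inflammasome sensor Nlrp3 at 699 and 464 CPM (0.664, 0.608 to 0.726). The lectin Clec4e stood at -0.26 (log2 ratio), level with the median gene, as did Ptgs2, the prostaglandin synthase. Of 20 chemotaxis and adhesion genes, 4 were at least 1.5-fold lower and 0 higher, a share close to that of all genes, and the list median was 0.06. The 4 were Icam1, the integrin chain Itga4 (-0.82), the chemerin-binding receptor Ccrl2 (927 and 526 CPM, -0.82) and Hcar2, a receptor for ketone bodies and niacin (790 and 517 CPM, -0.61). Cxcr4, a receptor that returns aged neutrophils to the marrow, was at 826 and 973 CPM (0.24). The checkpoint ligand Cd274 was at 135 and 74.4 CPM (-0.86).

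Of 15 survival and apoptosis genes, 7 were at least 1.5-fold lower and 0 higher, where 19.3% of all genes were lower, with a list median of -0.49, or -0.23 with the median of all genes set to 0. Bcl2, which blocks mitochondrial apoptosis, had 139 UMIs in FL/FL and 42 in ΔMAC (73.6 and 24.2 CPM, ratio 0.329, 0.227 to 0.468). Its relatives Bcl2a1b and Bcl2a1d stood at -0.98 and -1.19, and their near-identical sequences make the split between copies uncertain. Gadd45b, a stress-induced regulator of kinase signalling, was at 1076 and 624 CPM (-0.78), and Cflar, an inhibitor of caspase-8, was also at -0.78.

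Lcn2 and the stefins were higher in ΔMAC. Lcn2 encodes lipocalin-2, which captures bacterial iron carriers, and stood at 1278 CPM in FL/FL (1228 to 1330) and 3567 CPM in ΔMAC (3479 to 3657), a ratio of 2.79 (2.66 to 2.93). It was detected in 70.3% and 87.5% of cells. The stefins are cytosolic inhibitors of cysteine proteases that mouse neutrophils transcribe from a cluster of similar genes. Of 7 stefins and related genes with at least 100 UMIs, 6 were at least 1.5-fold higher (2.45% of all genes) and 0 lower, with a median of 1.44. Stfa2l1 was at 841 CPM (800 to 884) and 2284 CPM (2213 to 2356), a ratio of 2.72 (2.56 to 2.88). Stfa2 was at 64.0 and 280 CPM (ratio 4.38, 3.58 to 5.39), Stfa1 at 243 and 746 CPM (3.07) and BC100530 at 196 and 548 CPM (2.79). All 4 were more often detected in ΔMAC, Stfa2l1 in 45.7% and 70.2% of cells, but close sequences make the assignment among the copies uncertain.

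Type I interferon genes leaned the same way. Of 22 with at least 100 UMIs, 9 were at least 1.5-fold higher in ΔMAC and 0 lower, with a median of 0.48. Over all genes, 2.45% were higher and 19.3% lower. The interferon-induced Cxcl10, counted with the chemokines above and not in this list, was lower. Ifit1, which binds viral RNA caps, had 58 UMIs in FL/FL and 198 in ΔMAC, or 30.7 and 114 CPM (ratio 3.72, 2.76 to 5.08), and 22.4% of the FL/FL UMIs were in 1 cell. Rsad2, the antiviral enzyme viperin, was at 124 and 245 CPM (1.97, 1.68 to 2.33), and the interferon regulatory factor Irf7 at 92.6 and 157 CPM (1.70, 1.40 to 2.07). Oasl2, Ifit3, Slfn4, Slfn1 and Rtp4 lay between 0.68 and 0.88 on the log2 scale, and Ifitm6 at 1.09. Isg15 (0.08) and Ifitm1 (-0.09) did not reach 1.5-fold, so the list was not uniform. Plasmacytoid dendritic cell markers, from cells that make type I interferon, summed to 278 and 290 CPM. In cells that are not neutrophils they summed to 531 CPM in FL/FL and 770 CPM in ΔMAC. The part of such cells in the interferon result was not tested.

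Among genes of the highest ratios outside these lists were Tmsb4x, the actin-binding thymosin beta 4, at 18181 and 43440 CPM (2.39, 2.36 to 2.42), the membrane protein gene Myadm at 205 and 452 CPM (2.20) and the actin-bundling Tagln2 at 339 and 670 CPM (1.98). Of the lowest, Wfdc17, a secreted antiprotease-like protein, was at 1068 and 392 CPM (0.367, 0.336 to 0.401), and Basp1 at 394 and 149 CPM (0.379). The kinases Prkd3 and Nuak2, the linker histone Hist1h1c, the phosphatase Dusp16, Arhgap31 and Zfp263 lay between -1.41 and -1.19 on the log2 scale. The chaperone Hspa1a was at -1.30, and at -0.73 once cells above 10000 UMIs were left out.

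**Figure D2:**
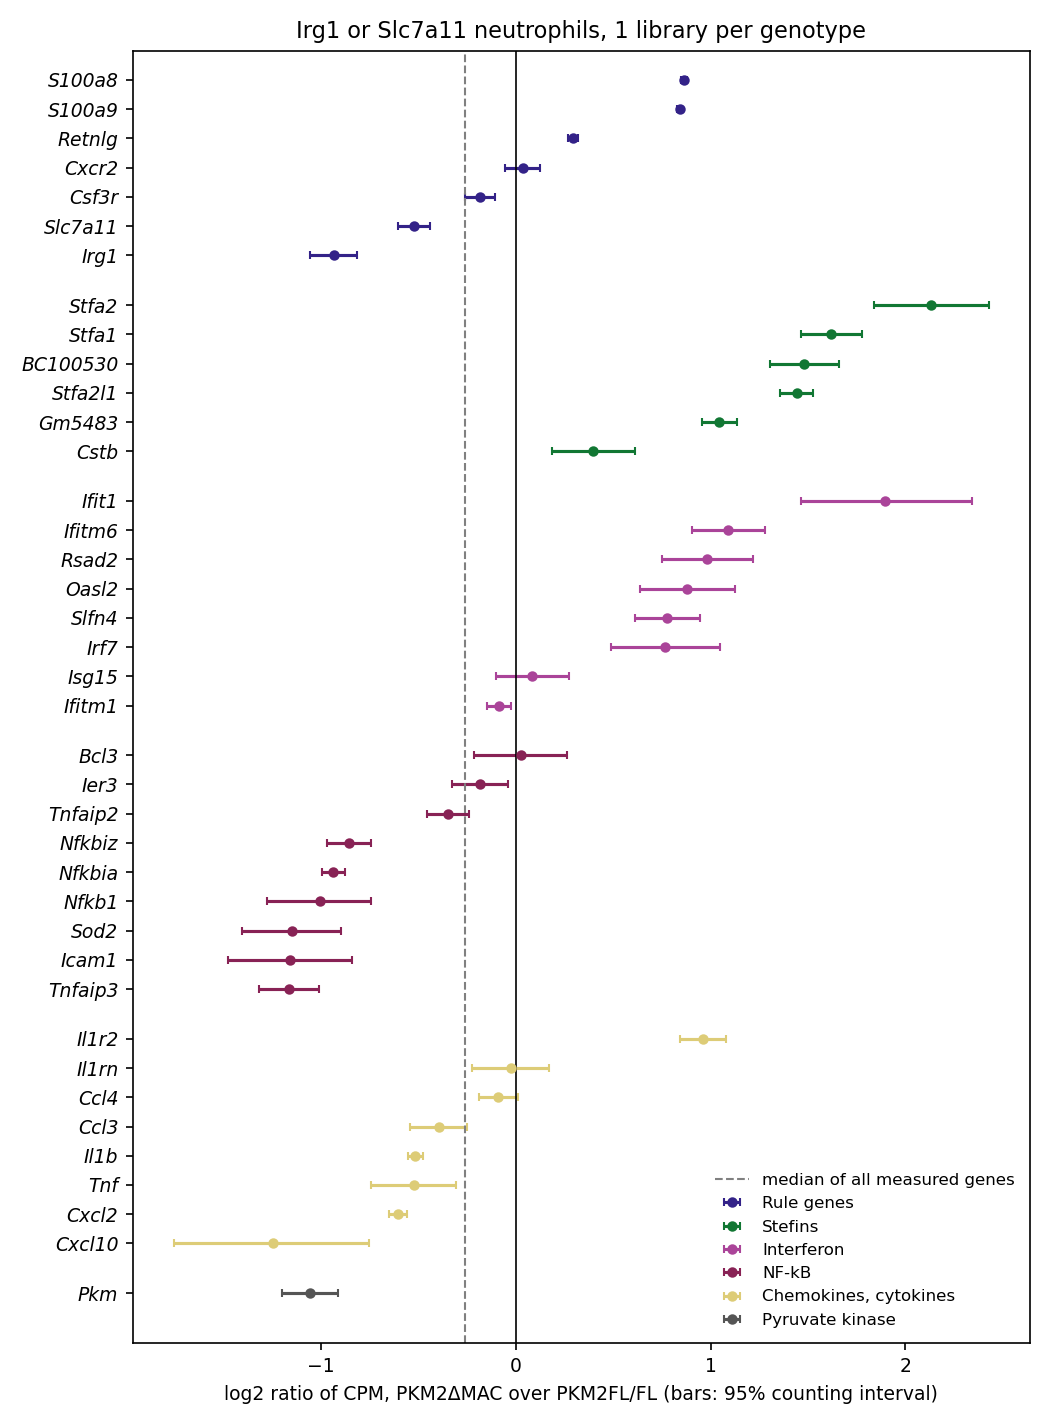
Log2 ratio of CPM, ΔMAC over FL/FL, for genes of 6 groups in the Irg1 or Slc7a11 neutrophils, with 95% counting intervals as bars and the median of all measured genes (-0.26) as a dashed line. Stefins other than Cstb lie to the right of 1, and Nfkb1, Sod2, Icam1, Tnfaip3 and Pkm to the left of -1.

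Granule genes depended on few cells. Prtn3, Elane, Mpo and Ctsg, the serine proteases and peroxidase of primary granules that are transcribed in marrow precursors, had 457, 448, 262 and 175 UMIs in FL/FL and 9, 1, 1 and 0 in ΔMAC. In FL/FL at least 99.3% of each was in 1 cell, which held 41036 UMIs with 0.08% of them from S100a8 and S100a9. Without cells above 10000 UMIs the Prtn3 log2 ratio turned from -5.54 to 1.84, so no direction holds for it. The secondary granule genes Camp (11 and 98 UMIs) and Ltf (4 and 50 UMIs) were detected in under 1% of cells, and in ΔMAC 71.4% and 80.0% of their UMIs were in 1 cell. Ngp was at 136 and 270 CPM, with 30.4% and 36.3% of its UMIs in 1 cell. Transcripts of the gelatinase granules, which mature neutrophils keep, differed little: Mmp8 was at 382 and 403 CPM (log2 ratio 0.08) and Mmp9 at 1314 and 1186 CPM (-0.15). Chil3 was at 46.0 and 159 CPM (log2 ratio 1.78), in 2.83% and 12.6% of cells.

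Metabolic lists differed among themselves. Of 16 glycolytic genes, 4 were at least 1.5-fold lower, a share not far from the 19.3% of all genes, and 0 higher. They were Pkm, Aldoa (-0.76), Eno1 (-0.64) and Pfkfb3, while Gapdh was at 1027 and 1058 CPM (0.04) and Ldha at 364 and 406 CPM (0.16). Of 18 glutathione and NRF2 genes, which serve the pathway that Slc7a11 feeds, 3 were at least 1.5-fold lower and 0 higher. This share of lower genes was near the 19.3% of all genes. The 3 were Txnrd1 at 231 and 123 CPM (-0.91), Gclm (92 and 51 UMIs) and the pentose phosphate enzyme Tkt (-0.66). Slc3a2, the partner chain of Slc7a11 in the exchanger, was at 151 and 119 CPM (-0.34), the heme oxygenase Hmox1 at 107 and 92.9 CPM (-0.20), and the glutathione peroxidase Gpx1 at 697 and 950 CPM (0.45). Of the arginine, prostaglandin and nitric oxide enzymes, 1 of 6 was lower, again near the share of all genes, Odc1 of polyamine synthesis (109 and 46 UMIs). Of 8 lipid handling genes, 4 were at least 1.5-fold lower and 0 higher, where 19.3% of all genes were lower and 2.45% higher. The 4 were the lipid droplet protein Plin2 (-0.85), the cholesterol exporter Abca1 (-0.80), Acsl1 (-0.71) and Hilpda (-0.64), though the list median was -0.18. With the median of all genes set to 0, Hilpda stood at -0.38, within 1.5-fold. Of 8 hypoxia genes, beside the same shares of all genes, 3 were lower, Kdm3a (-0.86), Mif (-0.71) and Hilpda. Ndrg1 (1.02) was higher, and the list median was -0.61. The lists of integrated stress response, lysosome, iron and fibrosis genes had 1, 1, 1 and 0 lower members of 8, 13, 7 and 9, not above the 19.3% of all genes.

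Mitochondrially encoded transcripts were lower in ΔMAC but concentrated in few cells. Of 11 measured, 8 were at least 1.5-fold lower (19.3% of all genes). Their median of -0.64 became -0.38 with the median of all genes set to 0 and -1.22 without called doublets. mt-Nd2 was at 337 and 181 CPM and mt-Cytb at 761 and 441 CPM. Mitochondrial UMIs made up 0.906% of the UMIs of these cells in FL/FL and 0.589% in ΔMAC, and the 5% of cells with most of them held 49.97% and 56.9%. The median cell had 0.273% and 0.157%.

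**Figure D3:**
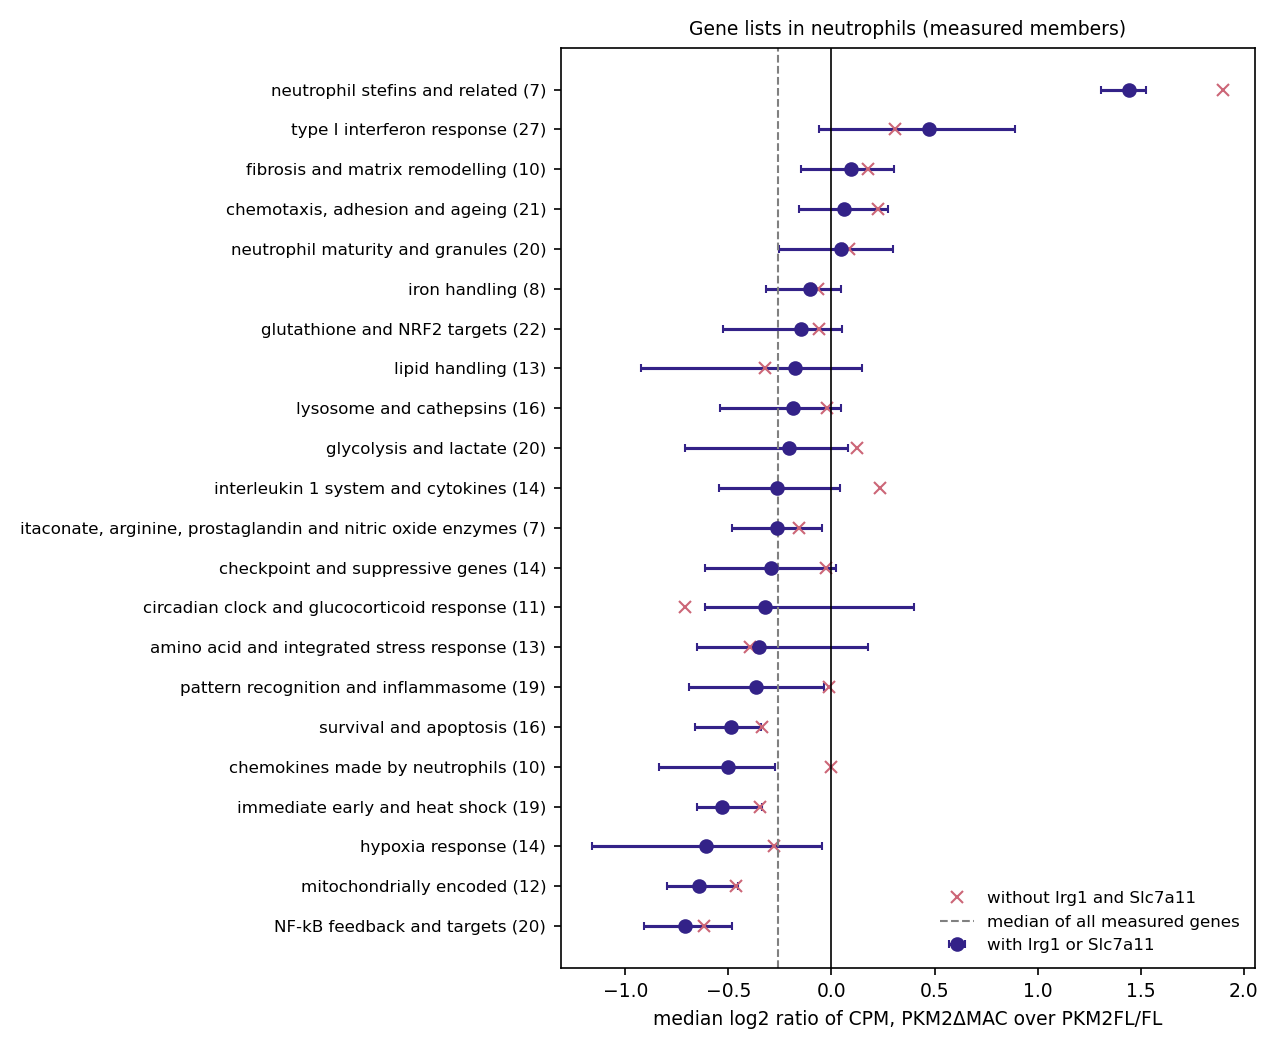
Median log2 ratio (ΔMAC over FL/FL, horizontal axis) of each gene list in the neutrophils with Irg1 or Slc7a11 (points) and without (crosses), with the number of measured members in parentheses. Bars run from the median of the members' lower to that of their upper counting bounds, and the dashed line marks all measured genes at -0.26, with stefins (1.44) to its right and the NF-kB list (-0.71) to its left.

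The response genes were graded within these neutrophils by how many Irg1 and Slc7a11 UMIs a cell held, the number on which the cells were chosen. Cxcl2 in cells with 1, 2 to 4, 5 to 9 and 10 or more such UMIs was at 1910, 3550, 4641 and 9403 CPM in FL/FL, and at 1746, 2415, 4244 and 7447 CPM in ΔMAC. Cells with 1 UMI thus had levels near those of the other neutrophils, at 1872 CPM (1648 to 2118) and 1675 CPM (1514 to 1847), and the limit of 1 UMI marked no step in Cxcl2. Tnf, the cytokine, went from 60.8 CPM in the lowest of the 4 ranges to 510 CPM in the highest in FL/FL, and from 40.4 to 369 CPM in ΔMAC. Hcar2 went from 439 to 1174 CPM and from 330.1 to 897 CPM, and Nfkbia from 2071 to 5224 CPM and from 1034 to 2904 CPM. These genes climbed with each step in both libraries. Median depth was higher too, from 2166 to 2510 UMIs in FL/FL and from 2434 to 2634.5 in ΔMAC. Its part in the grading was not tested.

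Other genes did not follow. Lcn2 lay between 973 and 1431 CPM in the 4 ranges of FL/FL and between 3278 and 3644 CPM in ΔMAC, so the libraries did not overlap in any range. Cxcr4 lay between 760 and 900 CPM in FL/FL and between 856 and 1155 CPM in ΔMAC, and Pkm between 596 and 754 CPM and between 302 and 387 CPM. Il1b was at 4867 CPM with 1 UMI and at 7513 CPM with 10 or more in FL/FL, and at 4940 and 6063 CPM in ΔMAC, a shallower gradient than that of Cxcl2.

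Within equal ranges of Irg1 and Slc7a11 UMIs, the libraries differed for Nfkbia much as in the whole, with log2 ratios of -1.002, -0.75, -0.72 and -0.85. The Lcn2 ratios were 1.86, 1.35, 1.59 and 1.28. Those of Cxcl2 were smaller than over all cells (-0.61), at -0.13, -0.56, -0.13 and -0.34. The gaps in Nfkbia and Lcn2 were thus present in every range, and that in Cxcl2 was small in 2 of the 4. The median gene of the 1 UMI range was at 0.03 (698 genes), against -0.26 over all these neutrophils. The ratios of the ranges therefore do not share a baseline.

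**Figure D4:**
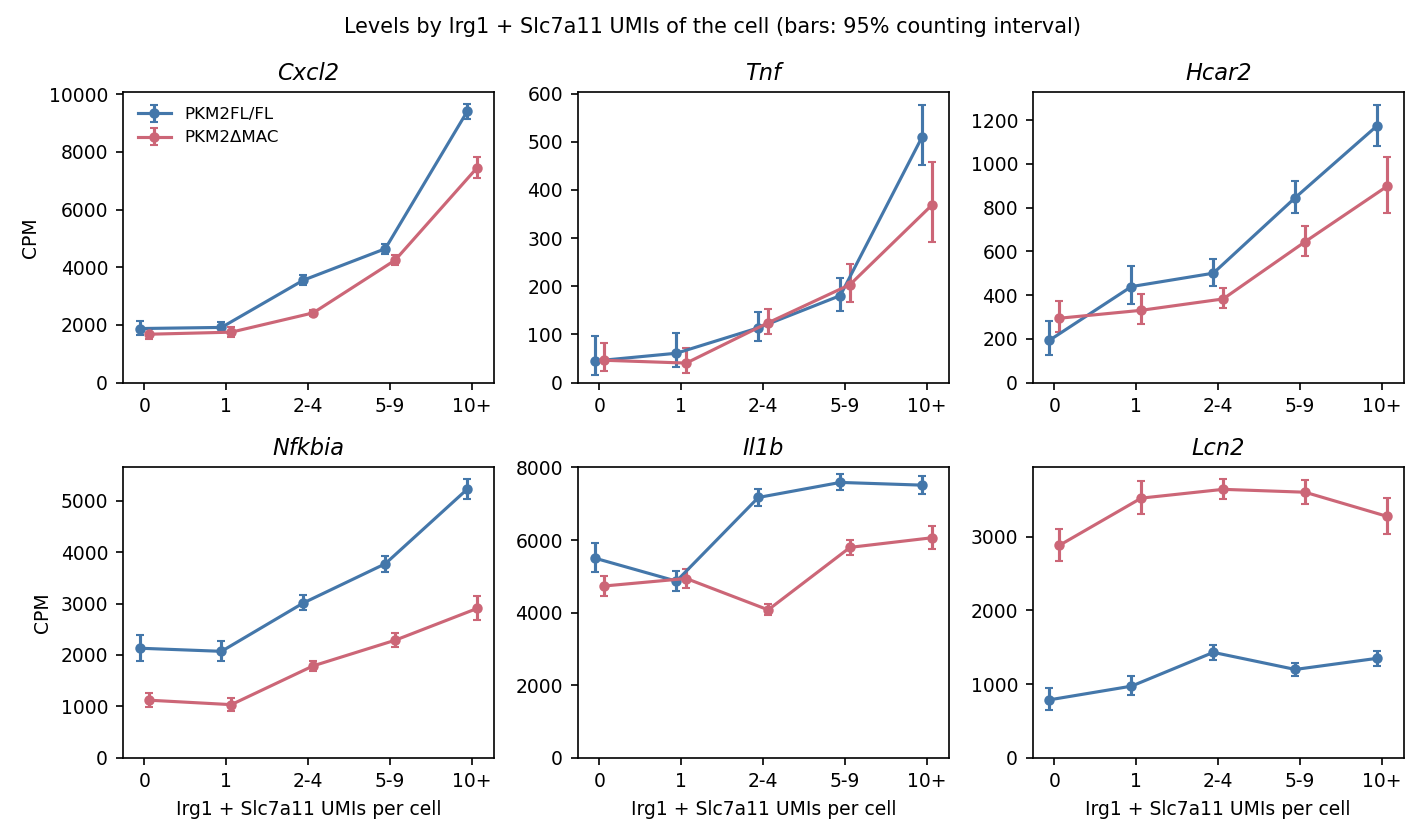
Levels of 6 genes (CPM, points with 95% counting intervals) against the summed Irg1 and Slc7a11 UMIs of a neutrophil, from 0 (the other neutrophils) to 10 or more, in each library. Cxcl2, Tnf, Hcar2 and Nfkbia climb from 1 UMI upward in both libraries, and Lcn2 in ΔMAC lies above FL/FL throughout.

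Among these neutrophils, cells with Irg1 had higher Cxcl2, Ccrl2, Ptgs2, Hcar2 and Tnf than cells with Slc7a11 alone, in both libraries. Of 3667 genes measured, 37 (1.01%) were at least 1.5-fold higher in Irg1-positive cells in both libraries and 44 (1.2%) lower. Detection of Irg1 chose these groups, and their depth differed, with a median of 2369 UMIs in FL/FL and 2488 in ΔMAC in the 411 and 293 cells with Irg1, and 2174.5 and 2400 in cells with Slc7a11 alone. Cxcl2 was at 6183 CPM in Irg1-positive and 3586 CPM in Slc7a11-only cells of FL/FL, and at 5044 and 2068 CPM in ΔMAC, ratios of 1.72 (1.65 to 1.81) and 2.44 (2.31 to 2.58). Ccrl2 was at 1129 and 525 CPM, and at 790 and 284 CPM, ratios of 2.15 (1.91 to 2.43) and 2.78 (2.40 to 3.22). Both were thus higher beside Irg1. The neutrophil chemokine receptor Cxcr2 was not, with ratios of 0.909 (0.831 to 0.994) in FL/FL and 0.941 (0.861 to 1.03) in ΔMAC. Ptgs2 had ratios of 1.79 (1.41 to 2.30) and 1.86 (1.47 to 2.36), Hcar2 of 1.74 and 1.92, Tnf of 1.92 and 1.73, and Cd274 of 2.22 and 2.26.

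Of the NF-kB list, 11 of 18 measured members in FL/FL and 7 of 15 in ΔMAC were at least 1.5-fold higher in Irg1-positive cells and 0 lower, where 5.26% and 3.09% of all measured genes were higher and 2.91% and 6.59% lower. The chemokine list gave 5 of 6 in FL/FL, but 2 of 5 in ΔMAC with 1 lower, Ccl5, which was at 1304 and 508 CPM in FL/FL and at 409 and 669 CPM in ΔMAC. Ccl4 was at 1082 and 653 CPM in FL/FL and at 749 and 1004 CPM in ΔMAC, the latter within 1.5-fold. Both thus went in opposite directions in the libraries, a difference that was not tested. For Ccl4, 20.2% and 15.8% of the UMIs over all these neutrophils were in 1 cell. Il1b was at 7358 and 6644 CPM in FL/FL and 5588 and 4417 CPM in ΔMAC, and Lcn2, Cxcr4, Cxcr2 and Pkm had log2 ratios between -0.14 and 0.17. Lower in Irg1-positive cells were Sec61g and Sec11c of protein export into the endoplasmic reticulum (-0.86 and -0.57 in FL/FL, -0.94 and -0.64 in ΔMAC), and Atp5g2, a subunit of ATP synthase (-0.70 and -0.96).

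**Figure D5:**
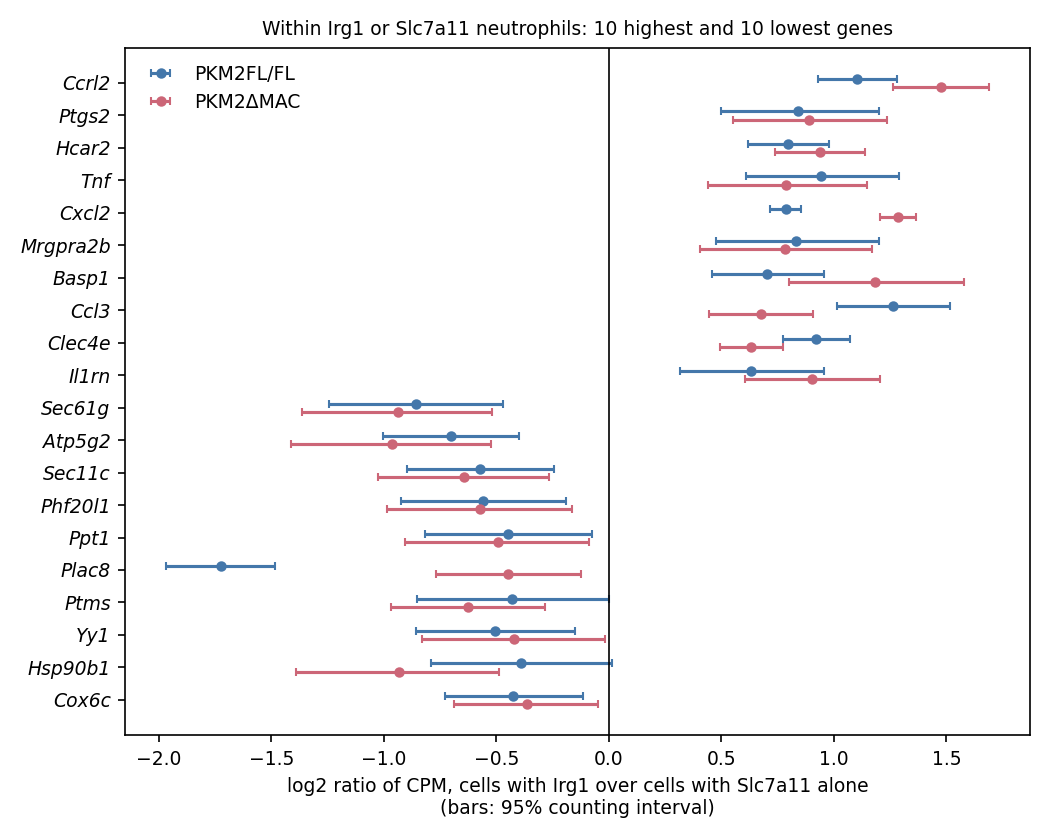
Log2 ratio of CPM in Irg1-positive over Slc7a11-only neutrophils (horizontal axis) for the 10 highest and 10 lowest genes, as points with 95% counting intervals, in each library. Cxcl2, Ccrl2, Hcar2 and Tnf lie to the right of 0 in both libraries, and Sec61g and Atp5g2 to the left.

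Against the other neutrophils, those with Irg1 or Slc7a11 had higher Tnf, Cxcl2, Hcar2, Cd14 and Nfkbia in each library, while most members of their gene lists were within 1.5-fold in one library or both. Of 3924 genes, 107 (2.73%) were at least 1.5-fold higher in both libraries and 116 (2.96%) lower, and because the rule chose the groups nothing is tested. The other neutrophils numbered only 50 and 91, which limits precision. Tnf was at 44.6 CPM in the other neutrophils of FL/FL and 238 CPM in those with the genes, a ratio of 5.34 (2.44 to 14.6), and in ΔMAC at 46.2 and 166 CPM, 3.59 (1.97 to 7.27). Cxcl2 was at 1872 and 5317 CPM, a ratio of 2.84 (2.51 to 3.23), and in ΔMAC at 1675 and 3492 CPM, 2.09 (1.88 to 2.31). Both genes of recruitment and alarm were higher in both libraries. Hcar2 had ratios of 4.09 (2.78 to 6.28) and 1.76 (1.38 to 2.28), Cd14 of 2.33 and 1.86, Gadd45b of 2.13 and 1.91, and Nfkbia of 1.76 and 1.75. Rsad2, Ccrl2, Rnf144a, Marcksl1, Dck and Nfkbiz completed the 12 highest. Outside them, the chemokine Ccl3 had ratios of 5.50 (3.13 to 10.7) and 1.59 (1.21 to 2.12). It rested on 12 UMIs in the other neutrophils of FL/FL, where it was detected in 18.0% of cells, against 25.3% with the genes. In ΔMAC it was detected in 24.2% of cells of either group. In the cells with the genes, 10.4% and 12.8% of its UMIs were in 1 cell.

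The counts that follow stand beside 2.73% of all genes higher in both libraries and 2.96% lower. Of 8 chemokines, 2 were higher in both libraries, Ccl3 and Cxcl2, and of 11 cytokine and interleukin 1 genes 2, Il1f9 and Tnf. Of 19 NF-kB genes, 5 were higher in both libraries, Birc3, Icam1, Nfkbia, Nfkbiz and Sod2, and of 18 pattern recognition genes 4, Casp4, Cd14, Clec4e and Tlr6, with Pycard lower. Of 19 glutathione and NRF2 genes 3 were higher, Hmox1, Tkt and Txnrd1. Hmox1, which breaks down heme, rested on 8 and 10 UMIs in the other neutrophils. The stefin list (0 of 7), the glycolysis list (0 of 16) and the mitochondrially encoded list (0 of 11) had no member higher in both. Il1b differed by 0.37 and 0.07 (log2) and Cxcr4 by -0.09 and 0.01. Genes lower beside Irg1 or Slc7a11 included Gzmb (33 and 116 UMIs in FL/FL, log2 ratio -2.00, 24 and 37 UMIs in ΔMAC, -2.24) and Ly6d, which mark lymphoid and plasmacytoid cells. The other neutrophils held more plasmacytoid dendritic cell marker RNA, 928 CPM summed against 278 CPM in FL/FL and 638 against 290 CPM in ΔMAC. Doublets were called in 7 of 50 (14.0%) and 9 of 91 (9.89%) of them. The part of either in the lower genes was not tested.

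Ranked by how much more often a gene was detected beside Irg1 or Slc7a11, taking the smaller difference of the libraries after thinning to 1000 UMIs, Cxcl2 was most like the rule's genes. It was detected in 74.1% of 625 cells with the genes and 37.5% of 48 without in FL/FL, and in 58.2% of 591 and 34.4% of 90 in ΔMAC, gaps of 36.6 and 23.8 points. Marcks (17.1 and 13.1 points), Lilr4b (25.1 and 12.4), Stx11 (20.2 and 11.6), Pygl (11.2 and 11.04) and Hcar2 (22.5 and 11.02) followed, with gaps that differ little from each other in ΔMAC.

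The same comparison of genotypes in other cells gives the context. In the other neutrophils, Nfkbia had a log2 ratio of -0.93, Tnfaip3 of -1.28, Lcn2 of 1.87, Pkm of -0.72 and Lyz2 of -4.82, where the median gene was at -0.09. In monocyte-gated cells, where it was at -0.01, Nfkbia was at -1.20, Tnfaip3 at -1.51, Pkm at -0.79 and Lyz2 at -9.71. The lower NF-kB feedback transcripts in ΔMAC were therefore not limited to neutrophils with Irg1 or Slc7a11. Nor was the higher Tmsb4x, at 1.33 in the other neutrophils and 1.16 in monocyte-gated cells, beside 1.26 here. S100a8, S100a9 and Retnlg were at 1.26, 1.18 and 1.03 in the other neutrophils, beside 0.86, 0.84 and 0.29 here. Cxcl2 was at -0.16 in the other neutrophils (ratio 0.895, 0.762 to 1.05) and at -2.31 in monocyte-gated cells. The interferon list had a median of 0.31 in the other neutrophils and -0.01 in monocyte-gated cells, beside 0.48 here. Whether these differences themselves differ between cell groups was not tested.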

How the data were processed

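The authors deposited raw UMI counts per gene and barcode for 27998 genes, processed in Cell Ranger 6.0.0 (per the file headers), from Chromium 3′ libraries (chemistry v2 or v3 per the labels' protocols). Build mm10 and Seurat 4.3.0 are named per the submitters' processing notes. The libraries held 10054 and 8949 barcodes with 54519921 and 43134027 UMIs, of which 9990 and 8877 passed the gene and mitochondrial limits.

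UMIs were summed over the chosen cells of a library and scaled to CPM with exact Poisson intervals. Ratios carry exact conditional intervals, shares Clopper-Pearson intervals and differences of shares Newcombe intervals. A group at 0 UMIs took a floor of 3 counts. A gene was measured with at least 100 UMIs over both libraries (against other neutrophils also 20 in each) and counted as apart at 1.5-fold. List medians used members with at least 20 UMIs, and list counts those with at least 100. B-gated, T-gated and monocyte-gated cells were chosen by marker UMIs. Doublets were called with Scrublet in scanpy 1.11.5 at a rate of 0.08 and kept. Free RNA was not subtracted.

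Named genes were the 12 highest and 12 lowest ratios of each comparison with at least 100 CPM in the higher group, beside the rule's genes and a set of activation, granule and redox genes. Mitochondrial, ribosomal, haemoglobin and sex-linked genes, receptor segments, genes named only Gm or Rik, markers of other cells and genes over 10 times higher outside neutrophils were not ranked. For Irg1-positive cells the 10 highest and lowest were taken. Other list members named were chosen after their values were seen. The cells, lists and rules were chosen with earlier results of these data known. Positions are from GENCODE M21, promoter windows from RefSeq. Python 3.11.15, numpy 2.4.6, scipy 1.17.1 and pandas 2.3.3 were used, and the counting code was tested on simulated data. A few list members are not reported here.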

Additional observations from a re-analysis of the deposited data

Results flagged for a closer look

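Within each library, named genes were compared between neutrophils with Irg1 and those with Slc7a11 alone. For 2 of them the libraries went in opposite directions, each with a counting interval that leaves out a ratio of 1. The difference between the libraries was not tested, since each has no replicate. Ccl4, a chemokine for monocytes and lymphocytes, had a log2 ratio of 0.73 in FL/FL and -0.42 in ΔMAC. Retnlg, the resistin-like protein that helped to choose the cells, had log2 ratios of -0.066 and 0.20, both small. Ccl5, which was not among the named genes and was chosen after its values were seen, had log2 ratios of 1.36 and -0.71.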

How the results depend on the processing

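No paired analysis was possible because each genotype has 1 library. Alternatives changed the limits of the cell rule, the doublet treatment, the scaling, the fold and the UMI minimum. Of 600 alternative values for 60 named-gene results, 498 stayed within their counting interval, 99 moved and 3 reversed. A reversal was counted only for genes at least 1.5-fold apart. Smaller ratios that changed sign were not counted as reversed, such as Csf3r, Il1rn, Ccl4, Mmp9 and Hmox1 with the median of all genes set to 0. The 3 reversals were all Prtn3 between libraries, from -5.54 to 2.18 with Irg1 and Slc7a11 at 2 UMIs or more, to 2.20 with S100a8 and S100a9 at 50 or more, and to 1.84 without cells above 10000 UMIs, an alternative chosen after seeing the data. With the median of all genes set to 0, the NF-kB list moved from -0.71 to -0.45, the mitochondrially encoded list from -0.64 to -0.38, stefins from 1.44 to 1.70 and survival from -0.49 to -0.23, and genes apart between libraries from 90 higher and 708 lower to 218 and 261. Without called doublets the mitochondrially encoded list moved to -1.22 and genes lower than in other neutrophils from 116 to 71. With S100a8, S100a9 and mitochondrial UMIs left out of the total, stefins moved to 1.53. At 2-fold the counts fell to 22 higher and 123 lower between libraries, and to 18 and 14 against other neutrophils (107 and 116 at 1.5-fold). With genes of at least 50 UMIs, 1310 were lower in ΔMAC, and 196 and 243 were higher and lower against other neutrophils. Weighting other neutrophils to the same UMI distribution gave 194 lower. The share of neutrophils with the genes, 92.7% in FL/FL and 86.7% in ΔMAC, became 59.8% and 42.8% for Irg1 alone, 87.0% and 80.3% for Slc7a11 alone, and 79.3% and 66.4% at 1000 UMIs per cell. The interferon list median stayed between 0.37 and 0.74 under the alternatives run. The small number of other neutrophils, 50 and 91 cells, limits the precision of that comparison.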
